A study of Mus musculus with 6 samples.

Results

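The Sox genes described here are 10 members of the SRY-related HMG-box family that are known from neural progenitors and young neurons: Sox1, Sox2 and Sox3 (subgroup SoxB1), Sox21 (SoxB2), Sox4, Sox11 and Sox12 (SoxC), Sox5 (SoxD), and Sox8 and Sox9 (SoxE). They were chosen by name, as family members known from these cells and with earlier results of these data known, as were the gene lists, and all 10 were found among the 26852 genes measured. RNA-seq was performed on dissected midbrains of mouse embryos on a C57Bl/6 background (C57BL/6J in the study's methods) at E14.5. Lmx1b cKO embryos were Lmx1b fl/fl;Pitx3-Cre and control embryos were Lmx1b wt/wt;Pitx3-Cre littermates, so that both groups carried the Pitx3-Cre driver. Each group had 3 libraries, and each library was made from 2 pooled embryos out of 4 litters. Because Cre is driven by Pitx3, which is expressed in mesodiencephalic dopaminergic (mdDA) neurons after they leave the cell cycle, Lmx1b is deleted in only a small share of the dissected cells, whereas the progenitors of the ventricular zone do not express Pitx3.

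Sox proteins bind the minor groove of DNA through the HMG box, a domain shared by the whole family. SoxB1 factors keep neural stem and progenitor cells undifferentiated and cooperate with POU factors, whereas the SoxB2 factor Sox21 counteracts SoxB1 and favours neuronal differentiation. SoxC factors act in cells that have just left the cell cycle and activate pan-neuronal genes, Sox5 lacks an activation domain of its own and shapes neuronal subtype and cell cycle exit, and SoxE factors drive the gliogenic switch in the ventricular zone. In the ventral midbrain Sox2 marks the ventricular zone, and Lmx1b is a LIM-homeodomain factor of mdDA neurons and their precursors. The comparison asks whether RNA of the Sox genes differed in the whole midbrain after Lmx1b was lost from Pitx3-expressing cells.

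The HMG box is so conserved that reads of one Sox gene could in principle match another, so the longest stretches with identical bases in the coding sequence of a pair of members are shown first. They were read from GRCm38 transcripts, 5′ to 3′ on the strand of each gene, in windows of 60 bases. Capitals mark the identical run, which is 48 bases between Sox4 and Sox11, 45 bases between Sox1 and Sox3, and 38 bases between Sox1 and Sox2. The first and the last pair lie within the HMG box and the Sox1-Sox3 pair lies around its end.
Sox4, chr13:28952743-28952802, reverse strand: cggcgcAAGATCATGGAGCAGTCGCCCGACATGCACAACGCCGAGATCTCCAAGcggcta
Sox11, chr12:27342160-27342219, reverse strand: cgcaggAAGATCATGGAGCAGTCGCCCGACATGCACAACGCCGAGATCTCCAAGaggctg
Sox1, chr8:12396720-12396779, forward strand: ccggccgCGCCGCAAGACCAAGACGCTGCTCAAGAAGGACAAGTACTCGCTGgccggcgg
Sox3, chrX:60892733-60892792, reverse strand: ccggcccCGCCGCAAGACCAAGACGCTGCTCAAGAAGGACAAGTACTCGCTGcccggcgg
Sox1, chr8:12396566-12396625, forward strand: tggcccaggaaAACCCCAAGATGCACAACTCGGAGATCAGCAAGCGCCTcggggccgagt
Sox2, chr3:34650597-34650656, forward strand: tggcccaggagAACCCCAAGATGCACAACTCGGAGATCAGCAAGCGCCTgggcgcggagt
The other pairs of members shared runs of 11 to 38 bases. No window of 50 bases in the longest transcript of any member was found in a transcript of another Sox gene, so a read of that length or longer that matches without mismatch belongs to 1 Sox gene. With genes outside the family, windows of this length were shared mostly where genes overlap on the genome. The share was 54.1% of the windows of Sox4, 17.8% of Sox21 and 9.49% of Sox8, each with its gene on the opposite strand, 0.774% of Sox1, with the miRNA gene Gm25239 that lies inside it, and 0.792% of Sox5, with several genes.

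All members are compact genes apart from Sox5, and 7 of the 10 have a single exon in their longest transcript (GENCODE annotation on GRCm38). The SoxB1 genes lie at chr8:12395295-12400126 (Sox1), chr3:34650405-34652461 (Sox2) and chrX:60891366-60893430 (Sox3), and Sox21 lies at chr14:118233232-118237030. The SoxC genes lie at chr13:28948919-28953713 (Sox4), chr12:27334264-27342574 (Sox11) and chr2:152393611-152398063 (Sox12). Sox5 spans chr6:143828425-144781977 with 15 exons, and Sox8 (chr17:25565892-25570686) and Sox9 (chr11:112782224-112787760) have 3 exons each. Sox1 and Sox2 lie within the long noncoding genes Sox1ot and Sox2ot on the same strand, with 0 shared exon bases. On the opposite strand, exons of Gm26735 cover 54.6% of the exon bases of Sox4, exons of Gm4675 cover 18.8% of Sox21, 2810468N07Rik covers 10.6% of Sox8 and Sox5os1 covers 9.25% of Sox5. Whether the authors' counting used the strand is not given in the sources used here, so reads of such shared bases cannot be told apart, or may have been left out as ambiguous.

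Values are normalized read counts, that is, read counts divided by a size factor for each library. They were recovered from the deposited group means, and the libraries of a group were named a, b and c in order of falling size factor. The recovered reads ranged from 28621569 to 34647184 per library. Lmx1b itself had 1257, 1401 and 1455 normalized counts in cKO replicates a, b and c, against 1368, 1352 and 1474 in the controls. The groups overlapped (log2 fold change -0.03 ± 0.0743 SE), so the count over the whole gene in whole midbrain does not check the genotype labels. Transcripts of bone and mesenchyme genes stood apart in cKO replicate c, where their sum was 14728 normalized counts, against 2584 in cKO replicate a and 948 to 1096 in the remaining libraries. Xist, the noncoding RNA of the inactive X, had 21625 to 31880 normalized counts in the cKO libraries, 40747 in control replicate a, and 10.6 and 18.4 in control replicates b and c, so the sex mix of the pools differed. In bulk RNA, fewer cells of a type and less RNA per cell cannot be told apart, and this holds for every difference given here.

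Per kilobase of the longest transcript, the SoxC genes Sox4 and Sox11 were by far the most abundant members. Over all 6 libraries Sox4 had 6226 ± 246 normalized reads per kilobase (SD, n = 6) and Sox11 had 4207 ± 172. They were followed by Sox12 with 1476 ± 55.5 and Sox2 with 1245 ± 113, whose ranges overlapped. Sox21 (514 ± 61.9) and Sox9 (342 ± 34.8) came next and did not overlap with their neighbours. Sox1 (209 ± 34.3), Sox5 (168 ± 4.06), Sox8 (168 ± 21.7) and Sox3 (155 ± 31.8) formed the lower end, and each overlapped with its neighbour in this order. The order depends on the length used, since Sox11 stood above Sox4 per kilobase of coding sequence, and Sox5 came last per kilobase of all its exons.

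**Figure D1:**
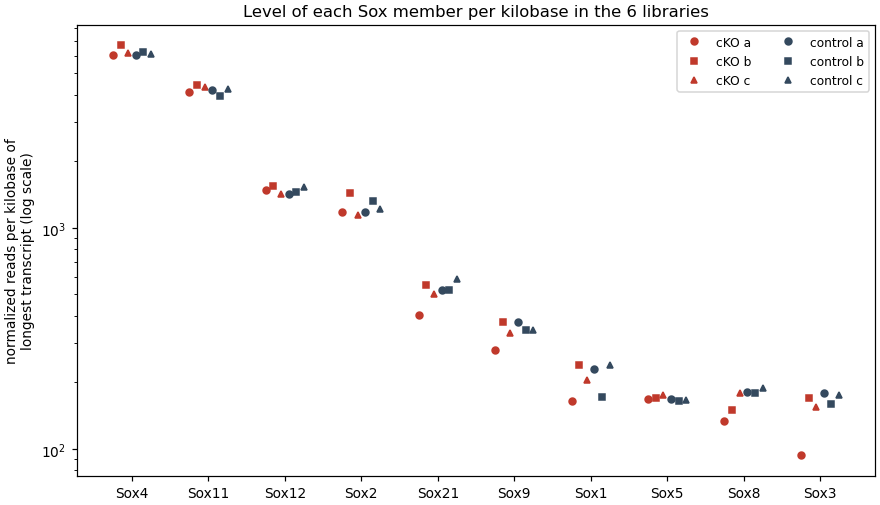
Normalized reads per kilobase of the longest transcript (vertical axis, log scale) of the 10 Sox members in the 3 cKO libraries (red) and the 3 control libraries (dark blue), with replicates a, b and c as circles, squares and triangles. Sox4 and Sox11 lie above 3940 in all libraries, and the lowest point is Sox3 in cKO replicate a at 93.5.

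Set against each other per kilobase, the 3 SoxB1 genes together reached 13.2% ± 1.21 (SD, n = 3) of the 3 SoxC genes in the cKO and 13.8% ± 0.333 (SD, n = 3) in the controls. Replicates a and c of the cKO, with 12.4% and 12.6%, lay below all controls (13.6% to 14.2%), and replicate b lay above them. SoxC genes held 81.6% ± 1.18 (SD, n = 3) of the summed level of all members in the cKO and 80.3% ± 0.121 (SD, n = 3) in the controls. With coding length in place of transcript length the SoxB1 to SoxC ratio was 6.21% in the cKO and 6.54% in the controls.

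None of the 10 members passed an adjusted p of 0.05 between cKO and control. This was also so for all 17166 genes tested (0%, limma with voom weights, Benjamini-Hochberg adjustment), of which 474 (2.76%) had an unadjusted p under 0.05. A single member, Sox8, had an unadjusted p under 0.05, and it was lower in the cKO. Of all genes, 1.61% had such a p and were lower and 1.15% had such a p and were higher. Sox8 was also the only member whose groups did not overlap, against 7.56% of all genes. By estimate, 5 members were higher and 5 lower in the cKO. The median log2 fold change was -0.04 over the members and 0.00 over all genes. Over the members it was 0.03 without cKO replicate a and -0.15 without cKO replicate b.

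**Figure D2:**
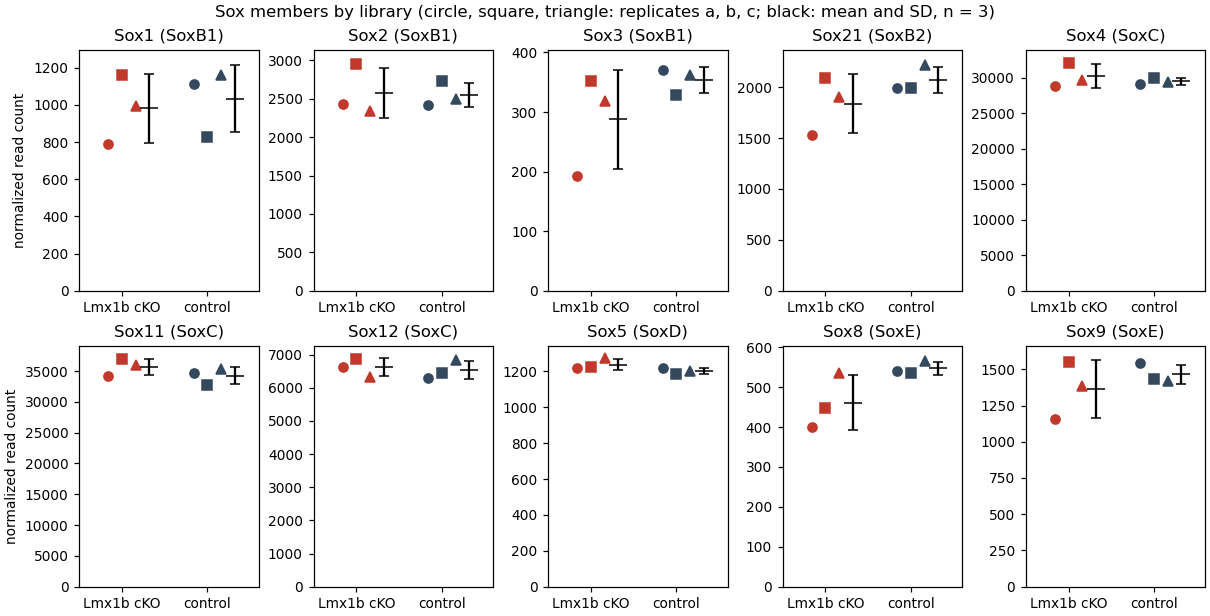
Normalized read count (vertical axis, from 0) of each Sox member in the 3 cKO libraries (red) and the 3 control libraries (dark blue), with replicates a, b and c as circles, squares and triangles and the mean ± SD in black. The SoxC genes and Sox5 show closely spaced libraries, and cKO replicate a is the lowest library for 6 of the 10 members.

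Sox2, which maintains the neural progenitor state and is the most abundant SoxB1 gene here, had 2428, 2950 and 2342 normalized counts in cKO replicates a, b and c. The controls had 2421, 2728 and 2499. Both the highest and the lowest library belonged to the cKO and the groups overlapped. Its log2 fold change was 0.01 ± 0.0841 SE, with a 95% interval from 0.885-fold to 1.14-fold. Its direction turned in 3 of the 6 fits with 1 library left out, to -0.093 without cKO replicate b and to -0.032 and -0.0048 without control replicates a and c. The adjusted p was 1.00, as for every other tested gene named here.

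Sox1, a SoxB1 factor of progenitors that is also kept in some neurons, had 792, 1162 and 993 normalized counts in the cKO libraries against 1110, 828 and 1161 in the controls. One library of each group was low, cKO replicate a and control replicate b, and the groups overlapped. At -0.08 ± 0.148 SE, its log2 fold change had an interval from 0.755-fold to 1.18-fold. Its direction turned without cKO replicate a (0.075) and without control replicate c (0.0016), and it was -0.23 without control replicate b.

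Sox3 is the X-linked SoxB1 gene and the least abundant member. It had 193, 352 and 318 normalized counts in the cKO libraries against 370, 329 and 363 in the controls, which rest on 206 to 418 reads per library. Replicate a of the cKO lay well below the other 5 libraries, which overlapped. The estimate was the lowest of all members, with a log2 fold change of -0.36 ± 0.190 SE and an interval from 0.582-fold to 1.04-fold. It was -0.08 ± 0.132 SE without cKO replicate a, and -0.53 ± 0.197 SE without cKO replicate b, where the unadjusted p was under 0.05. Control replicate a, with the highest Xist count, had 370 counts of Sox3, and control replicates b and c, with almost no Xist, had 329 and 363. The part of the sex mix in the values of Sox3 was not tested.

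Sox21, the SoxB2 factor that opposes SoxB1 function, had 1526, 2088 and 1902 normalized counts in the cKO libraries against 1990, 1996 and 2218 in the controls. Again cKO replicate a was the lowest library and the groups overlapped. Sox21 had a log2 fold change of -0.18 ± 0.0997 SE and an interval from 0.757-fold to 1.02-fold. Without cKO replicate a the estimate was -0.05 ± 0.0756 SE, and without cKO replicate b it was -0.28 ± 0.0971 SE with an unadjusted p under 0.05.

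The SoxC genes gave the narrowest intervals. Sox4, a SoxC factor of young neurons, had 28896, 32116 and 29652 normalized counts in the cKO libraries against 29100, 30018 and 29327 in the controls, and the groups overlapped. For Sox4 the log2 fold change was 0.03 ± 0.0436 SE, with an interval from 0.958-fold to 1.09-fold. The antisense gene Gm26735, which covers more of its exon bases than any other overlapping gene does for a member, had 75.2 to 207 normalized counts. Nearly all of its exon bases lie in this overlap, so its count does not show how many reads it gave.

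Sox11 acts together with Sox4 on neuronal genes and had the highest counts of all members. It reached 34230, 36885 and 35911 normalized counts in the cKO libraries against 34757, 32747 and 35272 in the controls. Although cKO replicates b and c lay above all controls, cKO replicate a lay below control replicates a and c. This gave a log2 fold change of 0.06 ± 0.0422 SE, from 0.976-fold to 1.11-fold.

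Sox12, the SoxC member with the weakest activation domain, had 6627, 6885 and 6342 normalized counts in the cKO libraries against 6302, 6459 and 6829 in the controls. The libraries of both groups were interleaved. Accordingly the log2 fold change was 0.02 ± 0.0503 SE, from 0.940-fold to 1.09-fold. The intervals of all 3 SoxC genes thus lay between 0.940-fold and 1.11-fold.

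Sox5, the SoxD member, had the most even counts of all members, with 1216, 1224 and 1274 normalized counts in the cKO libraries against 1217, 1186 and 1204 in the controls. The groups overlapped because cKO replicate a lay just below control replicate a. Its log2 fold change was 0.04 ± 0.0643 SE, from 0.933-fold to 1.13-fold. Sox5os1, whose exons overlap those of Sox5, was counted with 0 or 1 read per library.

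Sox8 is the SoxE gene that acts beside Sox9 in glial precursors. It had 400, 447 and 536 normalized counts in the cKO libraries against 540, 536 and 566 in the controls. All cKO libraries lay below all controls, although cKO replicate c and control replicate b differed by less than 1 count. Sox8 had a log2 fold change of -0.26 ± 0.114 SE, with an interval from 0.700-fold to 0.991-fold and an adjusted p of 1.00. The exact permutation test gave p = 0.1, the smallest that 3 against 3 libraries can give. When each of the 6 libraries was left out in turn, the unadjusted p was under 0.05 in 1 of the 6 fits, without cKO replicate c (log2 fold change -0.37 ± 0.115 SE). The smallest difference, -0.16 ± 0.116 SE, was found without cKO replicate a.

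Sox9, which starts the gliogenic switch in the ventricular zone, had 1156, 1552 and 1382 normalized counts in the cKO libraries against 1543, 1429 and 1419 in the controls. Replicate a of the cKO was the lowest and replicate b the highest of all libraries. Over all libraries the log2 fold change was -0.12 ± 0.0967 SE, from 0.794-fold to 1.06-fold. Without cKO replicate a it was 0.00 ± 0.0802 SE, and without cKO replicate b it was -0.22 ± 0.0915 SE with an unadjusted p under 0.05.

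**Figure D3:**
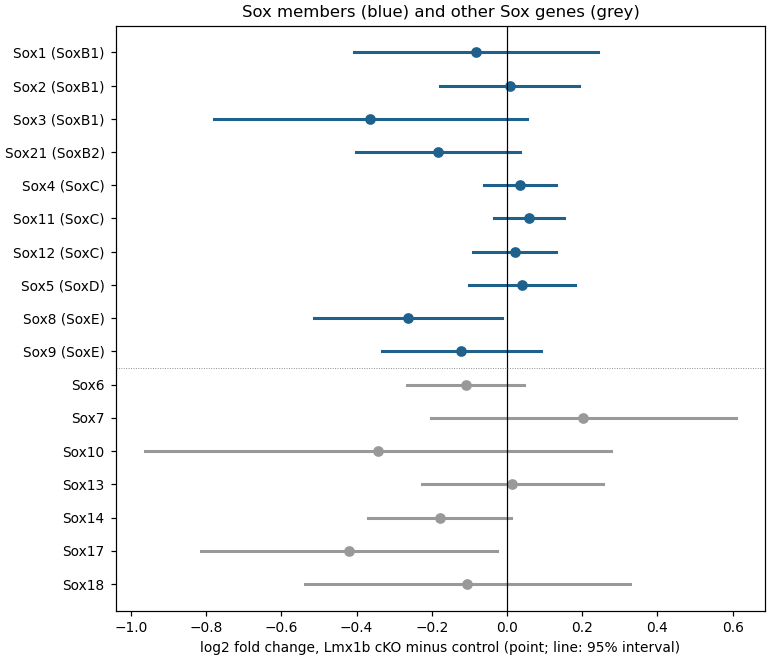
Log2 fold change between Lmx1b cKO and control (horizontal axis) with its 95% interval for the 10 Sox members (blue) and for 7 other Sox genes with a mean above 100 normalized counts (grey). Intervals are narrow around 0 for Sox4, Sox11, Sox12 and Sox5, and those of Sox8 and Sox17 lie below 0.

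By subgroup, the 4 SoxC and SoxD genes were all estimated slightly higher, with a median log2 fold change of 0.04. Without cKO replicate b, Sox4 and Sox12 turned to -0.01, and Sox12 also turned to -0.0049 without control replicate a. Of the 6 SoxB and SoxE genes 5 were estimated lower, with a median of -0.15, and Sox2 turned to -0.0015 when the libraries were scaled by their total reads. This grouping was made with the values known and was not tested. The estimates varied with the libraries included. Replicate a of the cKO was the lowest library for 6 members (Sox1, Sox3, Sox21, Sox4, Sox8 and Sox9), against 18.8% of all genes, and cKO replicate b was the highest for 6, against 16.5% of all genes. Without cKO replicate a the median of the SoxB and SoxE genes was -0.02, and without cKO replicate b it was -0.24. Accordingly, the number of members with an unadjusted p under 0.05 was 0 without cKO replicate a or any 1 of the controls, 1 without cKO replicate c, and 3 (Sox3, Sox21 and Sox9) without cKO replicate b.

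**Figure D4:**
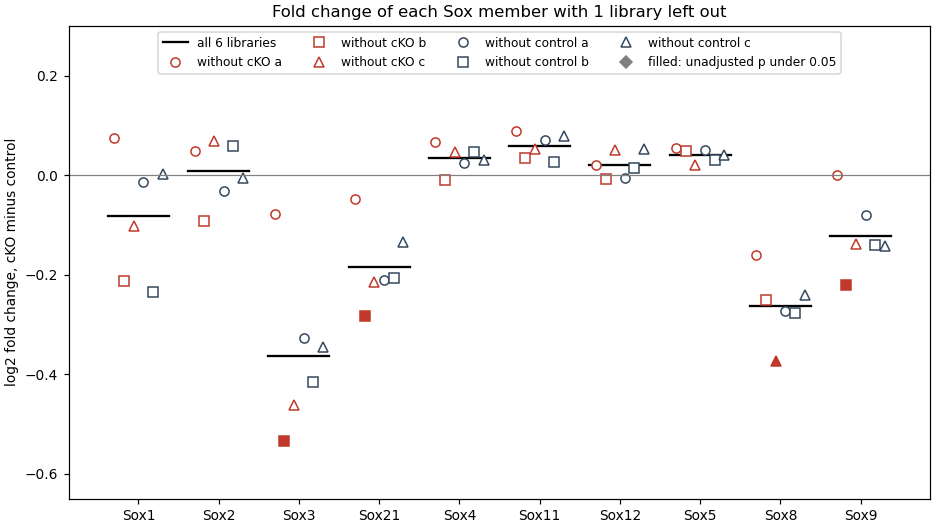
Log2 fold change of each Sox member (vertical axis) with all 6 libraries (black bar) and with 1 library left out (red, cKO; dark blue, control; circle, square and triangle for replicates a, b and c; filled where the unadjusted p is under 0.05). Leaving out cKO replicate a brings Sox3, Sox21 and Sox9 to between -0.08 and 0.00, and the SoxC genes and Sox5 stay between -0.01 and 0.09.

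Some of the members that were lowest in cKO replicate a varied together across libraries. The Pearson correlation of log2 normalized counts over the 6 libraries was 0.95 between Sox3 and Sox21, 0.94 between Sox3 and Sox9 and 0.85 between Sox21 and Sox9. Sox8 and Sox1 lay at 0.78 and 0.77 with Sox3, and at 0.41 with each other. Sox4 lay at 0.55 with Sox9, 0.42 with Sox21, 0.37 with Sox1 and with Sox3, and -0.20 with Sox8. For Sox2 the correlation was 0.29 with Sox3 and 0.88 with Sox4. These values are descriptions over libraries that share their group and their RNA pool. Among 12933 genes with a mean of at least 100, the unlisted genes with the profile most like Sox2 were Rsg1 (r = 0.99) and Ndufa7 (r = 0.99), and for Sox11 they were Brms1 (r = 0.99) and Ammecr1 (r = 0.99).

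SoxB1 genes act in progenitors, and genes of these cells were mostly estimated lower. Of 15 progenitor genes and SoxB1 partners 12 were lower and 3 higher in the cKO, with a median log2 fold change of -0.13, against 49.5% lower and a median of 0.00 over all genes tested. An unadjusted p under 0.05 was found for 4 of the 15, all lower, against 1.61% of all genes. These were the fatty acid binding protein gene Fabp7 of radial glia, the Notch target Hes5, the glutamate transporter gene Slc1a3 and the Notch modifier Lfng. Fabp7 had 12102, 12784 and 12896 normalized counts in the cKO libraries against 14024, 13675 and 13475 in the controls, without overlap (log2 fold change -0.13 ± 0.0423 SE). Lfng had 586, 706 and 711 counts in the cKO libraries against 824, 833 and 832 in the controls (-0.33 ± 0.0925 SE), and its unadjusted p stayed under 0.05 with any 1 library left out. For Hes5 the log2 fold change was -0.33 ± 0.134 SE and for Slc1a3 it was -0.21 ± 0.0736 SE, and in both the groups overlapped. With each library left out in turn, the unadjusted p was under 0.05 in 2 of the 6 fits for either gene and in 5 for Fabp7. Vim, the most abundant gene after Fabp7, was at -0.15 ± 0.124 SE. The 3 genes estimated higher were Pax6 (0.24 ± 0.156 SE), Ccnd1 (0.11 ± 0.116 SE) and Pou3f2 (0.05 ± 0.0698 SE). Of the 15 genes 12 were lowest in cKO replicate a, as most SoxB members were, and 6 were highest in control replicate a, against 18.5% of all genes. The median was -0.04 without either of these libraries. None of them passed the adjusted threshold.

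Genes around SoxC function were estimated in both directions. Of 15 young neuron genes and SoxC targets 9 were estimated higher and 6 lower, with a median log2 fold change of 0.02, and none had an unadjusted p under 0.05. Tubb3, the neuronal tubulin gene activated by SoxC factors, was at 0.0050 ± 0.0428 SE, and the microtubule gene Map2 was at -0.0013 ± 0.0376 SE. The summed level of the list was 329743 to 339874 normalized counts in the cKO libraries against 327557 to 332231 in the controls.

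Around the SoxE genes, 13 of 15 gliogenic genes were estimated lower and 2 higher, with a median log2 fold change of -0.11, against 49.5% lower over all genes. An unadjusted p under 0.05 was found for 3 of the 15, all lower, against 1.61% of all genes. Nfix, a nuclear factor I gene of glial differentiation, had 2337, 2459 and 2644 normalized counts in the cKO libraries against 2828, 3059 and 3262 in the controls (-0.30 ± 0.0679 SE). Aldh1l1, an enzyme gene of the astrocyte lineage, had 2263, 2430 and 2651 in the cKO libraries against 2822, 2836 and 2849 in the controls (-0.22 ± 0.0626 SE). In both the groups did not overlap, as for 7.56% of all genes, and the unadjusted p stayed under 0.05 with any 1 library left out. The matrix gene Tnc was at -0.27 ± 0.0814 SE, and its unadjusted p also stayed under 0.05 in all 6 of these fits, although its groups overlapped. Slc1a2, the most abundant gene of the list, was higher in all cKO libraries, with 9298 to 9411 counts against 8550 to 9158, and was at 0.10 ± 0.0439 SE. Of the list, 8 genes were lowest in cKO replicate a, and the median was -0.06 without it. No gene of the list passed the adjusted threshold.

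**Figure D5:**
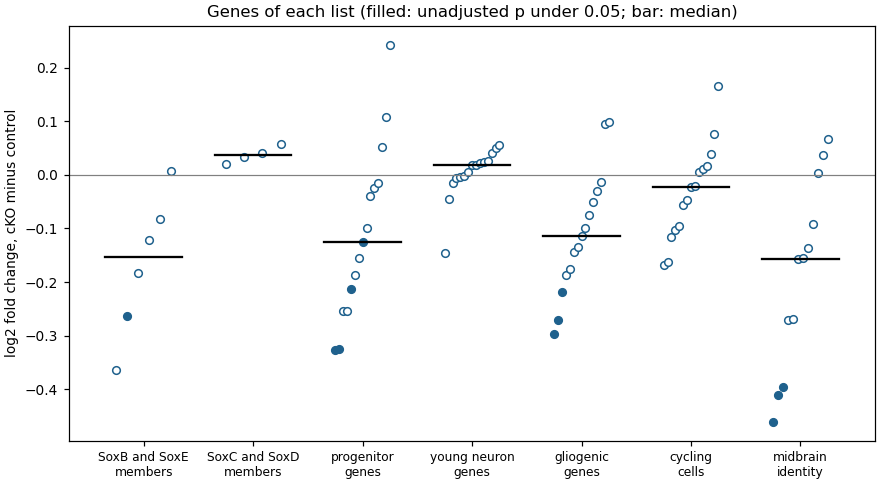
Log2 fold change between Lmx1b cKO and control (vertical axis) of each gene of the lists, with the median as a bar and genes with an unadjusted p under 0.05 filled. The medians are -0.15 for the SoxB and SoxE members, -0.13 for progenitor genes and -0.11 for gliogenic genes, against 0.04 for the SoxC and SoxD members and 0.02 for young neuron genes.

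The level of cycling cell genes varied within both groups. Their summed level was 6136, 8378 and 7526 normalized counts in the cKO libraries against 9878, 5575 and 6903 in the controls, so that the highest and the lowest library were both controls. The lowest libraries, control replicate b and cKO replicate a, were also the lowest for Sox1. The median log2 fold change was -0.02, 6 of 15 genes were higher and 9 lower, and none had an unadjusted p under 0.05. The most abundant of them, Top2a and Mki67, were at 0.01 and -0.02. With the level of these genes as a covariate, the estimates of the members ranged from -0.32 (Sox3) to 0.06 (Sox11), and that of Sox1 was -0.050 ± 0.107 SE.

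Of the lists for regional identity, the sums of the midbrain and forebrain lists did not overlap between groups. The summed level of 12 midbrain identity genes was 11198 to 12953 normalized counts in the cKO libraries against 13021 to 13836 in the controls. En1 was at -0.40 ± 0.0942 SE, En2 at -0.46 ± 0.104 SE and Pitx3 at -0.41 ± 0.178 SE, each with an unadjusted p under 0.05, against 1.61% of all genes with such a p and lower. With 1 library left out that p was kept in all 6 fits for En1 and En2 and in 2 for Pitx3. From the same RNA-seq the paper reports En1 and En2 as lower after the loss of Lmx1b, with En1 also lower by qPCR. It describes Pitx3 mRNA as not altered, whereas the estimate here was lower without passing the adjusted threshold. The most abundant gene Gata3 was at 0.00 ± 0.0783 SE. Of the list 9 genes were lower and 3 higher, against 49.5% lower of all genes, with a median of -0.16. The sum of 7 forebrain genes was 4365 to 5732 in the cKO libraries against 4092 to 4319 in the controls, with Dlx1 at 0.37 ± 0.122 SE and Emx2 at 0.21 ± 0.0962 SE, both with an unadjusted p under 0.05 (1.15% of all genes had such a p and were higher), and the most abundant gene Six3 at 0.05. That p was kept in 4 of the 6 fits with 1 library left out for Dlx1 and in 3 for Emx2. Of 6 genes tested 5 were higher and 1 lower, with a median of 0.26. That median was 0.15 without cKO replicate b, the highest library for 4 of the 6, and 0.36 without cKO replicate a. The 6 hindbrain genes in the table summed to 1.08 to 15.9 counts in all libraries, and each had a mean below 10. The part of the dissected region in the values of the Sox genes was not tested.

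Some members, such as Sox8 and Sox9, are also expressed in cartilage, and the lists for skeletal tissues are given for that reason. Cartilage genes summed to 5727, 6419 and 7785 normalized counts in cKO replicates a, b and c, against 6604 to 6920 in the controls, mostly through Col2a1 (log2 fold change -0.15) and Col9a2 (0.02), and 8 of 9 tested genes were estimated higher (median 0.41), with cKO replicate c as the highest library for 8. The median was -0.09 without that library, 0.19 and 1.11 without cKO replicates a and b and 0.07 without control replicate a, and with a minimum mean of 50 for every gene it was 0.02. Of 11 bone and mesenchyme genes tested 10 were estimated higher, and all were highest in cKO replicate c. The share estimated lower over all genes, for both lists, was 49.5%. The median of the bone and mesenchyme genes was 1.21, with 0.51 without cKO replicate c and 2.28 without cKO replicate b. Col3a1 was at 1.84 ± 0.779 SE with an unadjusted p under 0.05, against 1.15% of all genes with such a p and higher. It kept that p in 3 of the 6 fits with 1 library left out. The most abundant bone and mesenchyme gene, Col1a1, had 6097 counts in cKO replicate c and 532 and 14.8 in cKO replicates a and b. The controls had 10.6 to 11.5. Col1a2 had 4315 counts in cKO replicate c and 123 to 594 in the other libraries. In cKO replicate c, Sox5 had its highest count of all libraries and Sox9 lay lower than in all 3 controls. Sox8 lay just below its lowest control in that library and above the other cKO libraries. Without cKO replicate c the log2 fold changes were -0.37 for Sox8, -0.14 for Sox9 and 0.02 for Sox5.

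Of the other Sox genes, 9 were in the table and 8 had a mean of at least 10 normalized counts. By estimate 2 were higher and 6 lower, with a median log2 fold change of -0.14. Sox17, which marks endothelium, had 97.4, 123 and 135 counts in the cKO libraries against 155, 159 and 154 in the controls. The groups did not overlap, as for 7.56% of all genes, and the log2 fold change was -0.42 ± 0.179 SE. Its unadjusted p was under 0.05 with all 6 libraries and in 1 of the 6 fits that left out a library. Of all genes, 1.61% had such a p and were lower. The other endothelial Sox genes, Sox7 and Sox18, were at 0.20 and -0.11. The endothelium list, which holds these 3 genes, had 5 genes higher and 5 lower, a median of 0.01 and sums of 5737 to 6102 in the cKO libraries against 5517 to 6190 in the controls, and its most abundant genes Kdr and Cldn5 were at 0.03 and -0.06. Sox6, the relative of Sox5, had 997, 1104 and 1068 counts in the cKO libraries against 1125, 1123 and 1168 in the controls, without overlap (-0.11 ± 0.0710 SE). Sox14, the second SoxB2 gene and a marker of GABAergic neurons, was at -0.18 ± 0.0868 SE. Sox10 of the oligodendrocyte and neural crest lineage was at -0.34 ± 0.283 SE, with 61.3 to 133 counts in the cKO libraries against 104 to 159 in the controls. Sox13 was at 0.01 and Sox30 at -0.29, with 7.50 to 24.9 counts of the latter. Sox15 had 0 to 5.76 counts.

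The noncoding neighbours of the SoxB1 genes were counted too. Sox2ot had 1185, 1351 and 1296 normalized counts in the cKO libraries against 1262, 1166 and 1417 in the controls (log2 fold change -0.0010 ± 0.0848 SE). Sox1ot had 968, 1117 and 1385 in the cKO libraries against 1325, 1065 and 1419 in the controls (-0.15 ± 0.131 SE). As with Sox2 and Sox1, the groups overlapped in both. The antisense partners of Sox21 and Sox8 had lower counts, with 37.5 to 90.9 for Gm4675 (-0.55 ± 0.301 SE) and 39.1 to 68.2 for 2810468N07Rik (-0.15 ± 0.284 SE).

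Promoter sequences of 8 members were found in RefSeq (GRCm38.p6), as the 250 bases before the start that RefSeq gives, and those of Sox3 and Sox9 were not among them. Some of these starts differ from the GENCODE positions given above, so that the Sox5 window and most of the Sox1 window lie within the GENCODE gene. The promoters of Sox4 and Sox11 are shown because these were the most abundant members. Capitals mark CCAAT on either strand (ATTGG where it lies on the opposite strand), the motif of the factor NF-Y, with 4 matches in Sox4 and 1 in Sox11.
Sox4, chr13:28953700-28953949, reverse strand: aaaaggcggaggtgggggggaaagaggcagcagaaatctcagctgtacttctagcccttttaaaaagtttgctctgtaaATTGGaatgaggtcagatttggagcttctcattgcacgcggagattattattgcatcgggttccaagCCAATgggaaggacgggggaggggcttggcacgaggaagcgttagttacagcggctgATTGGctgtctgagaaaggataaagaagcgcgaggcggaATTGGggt
Sox11, chr12:27342719-27342968, reverse strand: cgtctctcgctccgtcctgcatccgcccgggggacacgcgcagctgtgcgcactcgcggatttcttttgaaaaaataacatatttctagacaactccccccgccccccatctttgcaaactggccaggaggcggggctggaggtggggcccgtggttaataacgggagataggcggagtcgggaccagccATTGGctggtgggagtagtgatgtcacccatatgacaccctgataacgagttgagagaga
CCAAT was found in 5 of the 8 member promoters (Sox1, Sox2, Sox4, Sox11 and Sox12), against 33.8% of all 32851 promoters of the same length. The E-box CAGCTG was found in the same windows of Sox4 and Sox11, against 13.0% of all promoters. Of the SOX motifs, ACAAAG was found in Sox2 (16.5% of all promoters) and ACAATG in Sox5 (10.7%). The homeodomain motif TAATTA was found in 0 of 8 and in 4.84% of all promoters. Both strands were searched, no letters of these motifs were shared within the sequences shown, and a match describes the letters of the window only.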

How the data were processed

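RNA was extracted with Trizol from dissected E14.5 midbrains and sequenced in pairs as 3 libraries per genotype, each of 2 pooled embryos. The submitters' processing notes name TopHat 1.0.14, Bowtie2 2.1.0, HTSeq 0.6.1p1, DESeq 1.10.1 and GRCm38.p4, and the paper names DESeq2. The deposited table holds signal values, that is, mean coverage per gene for the 6 libraries and for either group, as read counts scaled by the authors with 1 size factor for each library. It also holds the authors' own ratios, p-values and ranks, which were not used. The 3 lines that name no gene (no feature, ambiguous, not unique) hold 31.8% of the mean coverage and were left out.

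Whole reads per library were recovered from the group means, which are sums of whole reads times a fixed step per library. One answer was found in both groups for 26841 of 26852 genes (99.96%), including all 10 Sox genes, and 35 genes were resolved only by requiring counts between 0.5 and 2 times the group mean. Size factors recomputed from the recovered counts differed from the recovered ones by at most 0.00379%. Recovered genes hold 96.3% of the gene counts, with 28621569 to 34647184 reads per library. The libraries carry their genotype and no sample number.

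The test was limma 3.58.1 (R 4.3.3) with voom weights on 17166 genes whose normalized counts averaged 10 or more. Genotype was the only term, the recovered size factors set the scale, and the Benjamini-Hochberg adjustment ran over all tested genes. The steps were tested on simulated data. For limma these used a common spread for all genes, taken from the control libraries, so they do not cover the spread among the cKO libraries. Intervals are 95% intervals of the moderated test, and single genes were also compared by a two-sided exact permutation test (smallest p 0.1). Alternatives were minimum means of 1 and 50, recomputed size factors, total recovered reads, limma-trend with pseudocounts of 1 and 10, a covariate for the level of cycling genes, other gene lengths, and leaving out each library. Positions come from GENCODE on GRCm38 (26693 genes matched).

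The members and gene lists were chosen with earlier results of these data known. Named genes are the 10 members, the other Sox genes, Lmx1b, genes whose exons overlap a member, the 2 most abundant genes of each list and those with an unadjusted p under 0.05, and the 2 unlisted genes most like Sox2 and Sox11. Xist, Sox1ot, Sox2ot, Pax6, Ccnd1, Pou3f2 and the genes called under an alternative (Aldh1a1, Kdm5d, Uty, Ddx3y and Gm11702) were added after the values were seen. The list of neural crest and Schwann cell genes is not reported here.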

Additional observations from a re-analysis of the deposited data

How the results depend on the processing

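No member reached an adjusted p of 0.05 in any of 130 fits under alternatives (smallest adjusted p 0.995). Under the 7 alternatives that kept all libraries the members kept their direction, except that Sox2 was at -0.0015 with total recovered reads, and 1 member had an unadjusted p under 0.05 in each. With coding length the SoxB1 to SoxC ratio was 6.21% in the cKO and 6.54% in the controls. The number of genes with an adjusted p under 0.05 was 1 (Aldh1a1, higher in the cKO, adjusted p = 0.00586) with a covariate for cycling genes, and 0 to 5 when 1 library was left out. The 5, without control replicate a, were Kdm5d, Uty, Ddx3y, Gm11702 and Xist, of which Kdm5d, Uty and Ddx3y are Y-linked. Genes with an unadjusted p under 0.05 numbered 347 to 697 under the former alternatives and 342 to 654 when 1 library was left out.

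Leaving out 1 library moved the log2 fold change between -0.23 and 0.075 for Sox1, -0.093 and 0.069 for Sox2, -0.53 and -0.078 for Sox3, -0.28 and -0.048 for Sox21, -0.011 and 0.066 for Sox4, 0.026 and 0.088 for Sox11, -0.0079 and 0.052 for Sox12, 0.020 and 0.053 for Sox5, -0.37 and -0.16 for Sox8, and -0.22 and 9.9e-05 for Sox9. The number of members with an unadjusted p under 0.05 ranged from 0 to 3. The cause of these changes was not tested. No paired analysis was possible because the recovered libraries carry no replicate number and so cannot be matched between groups. With 3 libraries per group, the width of the intervals sets what could be seen, from 0.976-fold to 1.11-fold for Sox11 to 0.582-fold to 1.04-fold for Sox3.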
